A study of Drosophila melanogaster with 3 samples.

Results

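The 5 GATA transcription factor genes of Drosophila melanogaster named here, srp, GATAe, pnr, grn and GATAd, and ush, which encodes a GATA cofactor, were searched for binding of the protein CG15601. The search window of each gene was its body plus 5 kb on each side, on the dm6 assembly. A peak was a member when its summit, the position of its highest signal, lay inside a window. The 6 windows held 31 of the 6458 peaks in the list cut by the irreproducible discovery rate (IDR), which keeps peaks whose ranking repeats between replicates. They held 108 of the 30000 peaks in the pooled list. In replicates 1, 2 and 3 they held 93, 97 and 103 of 30000 peaks each, or 97.7 ± 5.03 (SD, n = 3).

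The data came from chromatin immunoprecipitation and sequencing (ChIP-seq) with an anti-GFP antibody. The samples were 3 biological replicates of 1 group. Each was whole embryos of 0 to 14 h and of both sexes, from 1 transgenic line that stably expresses CG15601 with GFP at its C-terminus. There is no untagged group among the samples, all lists share 1 control file, and whole embryos mix every cell type of these stages, so a peak cannot be assigned to a tissue. The lists hold no read counts, so depth is unknown. Each peak carries the authors' signal value, which was used to rank peaks within a list, rank 1 being the strongest, and never to compare lists. Every IDR peak is also in the pooled list, and the IDR peaks are its 6458 strongest. A peak in the IDR list need not be found in each replicate: of the 31 members, 3 overlapped a peak in only 2 replicate lists.

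GATA factors are zinc finger proteins that bind DNA words with the core GATA, and those described next are known for particular embryonic tissues. In Drosophila, serpent (srp) is required for blood cells, the fat body and the endoderm, and GATAe acts after it in the endoderm. Pannier (pnr) acts in the dorsal ectoderm and in the heart precursors, and grain (grn) in ectodermal structures such as the posterior spiracles and in motor neurons. U-shaped (ush) is the fly Friend of GATA protein, which binds Serpent and Pannier and changes their activity in blood, heart and dorsal ectoderm.

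The sequences below cover 50 bp on each side of the summit. They lie under the strongest peaks of the ush window and under peaks in the windows of the GATA genes. In the GATA gene windows the choice did not follow rank and favoured peaks with a marked word. All sequences are read 5′ to 3′ on the plus strand from the RefSeq copy of genome release 6, which has dm6 positions. Capitals mark, on either strand, 3 kinds of word. The GATA words searched were AGATAA and AGATAG, and a further pair of the same length, TGATAA and TGATAG. The DNA replication-related element (DRE), bound by Dref, was searched as TATCGATA. For Forkhead proteins the first word searched was TGTTTAC and the other one was TATTTAC.
ush first intron, IDR rank 45, chr2L:481006-481106: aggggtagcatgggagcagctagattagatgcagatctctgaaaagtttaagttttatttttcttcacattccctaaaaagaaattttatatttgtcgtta
ush first intron, IDR rank 349, chr2L:485818-485918: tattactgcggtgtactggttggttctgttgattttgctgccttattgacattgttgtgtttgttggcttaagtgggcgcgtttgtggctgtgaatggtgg
cbt promoter inside ush, IDR rank 426, chr2L:479996-480096: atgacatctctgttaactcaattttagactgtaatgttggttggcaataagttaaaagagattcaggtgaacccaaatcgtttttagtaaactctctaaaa
ush intron before the inner starts, IDR rank 865, chr2L:520768-520868: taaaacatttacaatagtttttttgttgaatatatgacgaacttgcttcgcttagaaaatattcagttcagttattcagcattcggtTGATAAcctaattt
srp upstream, IDR rank 1665, chr3R:15983716-15983816: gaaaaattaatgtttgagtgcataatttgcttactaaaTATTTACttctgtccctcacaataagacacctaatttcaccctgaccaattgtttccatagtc
srp upstream, IDR rank 3064, chr3R:15984531-15984631: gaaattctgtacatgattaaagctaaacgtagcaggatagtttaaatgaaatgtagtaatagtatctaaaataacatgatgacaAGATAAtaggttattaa
between srp and GATAe, IDR rank 1626, chr3R:16006088-16006188: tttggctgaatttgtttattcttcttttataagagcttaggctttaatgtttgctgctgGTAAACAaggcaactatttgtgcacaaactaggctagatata
pnr promoter, IDR rank 5763, chr3R:16025946-16026046: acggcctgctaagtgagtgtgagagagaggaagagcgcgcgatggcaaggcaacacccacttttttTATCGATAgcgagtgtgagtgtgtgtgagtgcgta
grn first intron, IDR rank 1788, chr3R:8180597-8180697: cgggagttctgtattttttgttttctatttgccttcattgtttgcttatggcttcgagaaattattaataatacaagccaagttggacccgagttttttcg
grn intron, IDR rank 5576, chr3R:8155927-8156027: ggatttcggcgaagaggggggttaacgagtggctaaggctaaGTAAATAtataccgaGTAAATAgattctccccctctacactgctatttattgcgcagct
GATAd intron, IDR rank 1455, chr2L:10335095-10335195: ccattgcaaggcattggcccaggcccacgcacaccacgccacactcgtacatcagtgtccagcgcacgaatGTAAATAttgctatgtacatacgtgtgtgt

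The strongest of these windows, at rank 45, held none of the marked words, and neither did those at ranks 349 and 426. A GATA word was present under the ush peak at rank 865, as TGATAA, and under the srp peak at rank 3064, as AGATAA. The pnr promoter window held 1 DRE. Forkhead words stood under the peaks at ranks 1665, 1626 and 1455, and the grn peak at rank 5576 held 2 of them. The members of the GATA gene windows not printed, at ranks 1826, 2653, 4479, 4936, 5317 and 6045, held none of these words. The printed sequences therefore overstate how often such words occurred at the GATA genes.

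Over all 31 windows, 6 held a GATA word, 19.4% (exact 95% binomial interval 7.45 to 37.5%), against 22.8% of all IDR windows of the same length. The members therefore sat near the share of the whole list. Such intervals cover counting error over peaks only, and peaks are not biological replicates. Of the 6 windows with a GATA word, 5 lay in the ush window and 1 upstream of srp. Among the strongest 6458 peaks of each replicate, 20.7, 12.5 and 27.6% of the summits in the 6 windows had a GATA word in replicates 1, 2 and 3, a mean of 20.3 ± 7.56% (SD, n = 3). The 77 weaker pooled summits in the windows had one in 16 cases, 20.8%, against 19.5% of all weaker pooled summits. A Forkhead word lay under 7 of the 31 summits, 22.6% (9.59 to 41.1%), against 11.4% of all IDR summits. The DRE lay under 1 of 31, against 2.4% of all. A match here describes letters in the window and does not show that a factor binds there.

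The IDR summits were most numerous at ush, which also has the longest window of the 6. Its window held 18 of the 31 IDR summits, while srp and GATAd had 4 each, GATAe and grn 3 each, and pnr 1. A pair of summits between srp and GATAe counts for both of those genes, and the 31 peaks are separate regions. All 6 genes had at least 1 IDR summit, which 55.6% of the 13945 protein-coding genes also had in a window built the same way. Longer windows hold more: of the 3239 genes with a window at least as long as the shortest of the 6, 68.8% had one.

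**Figure D1:**
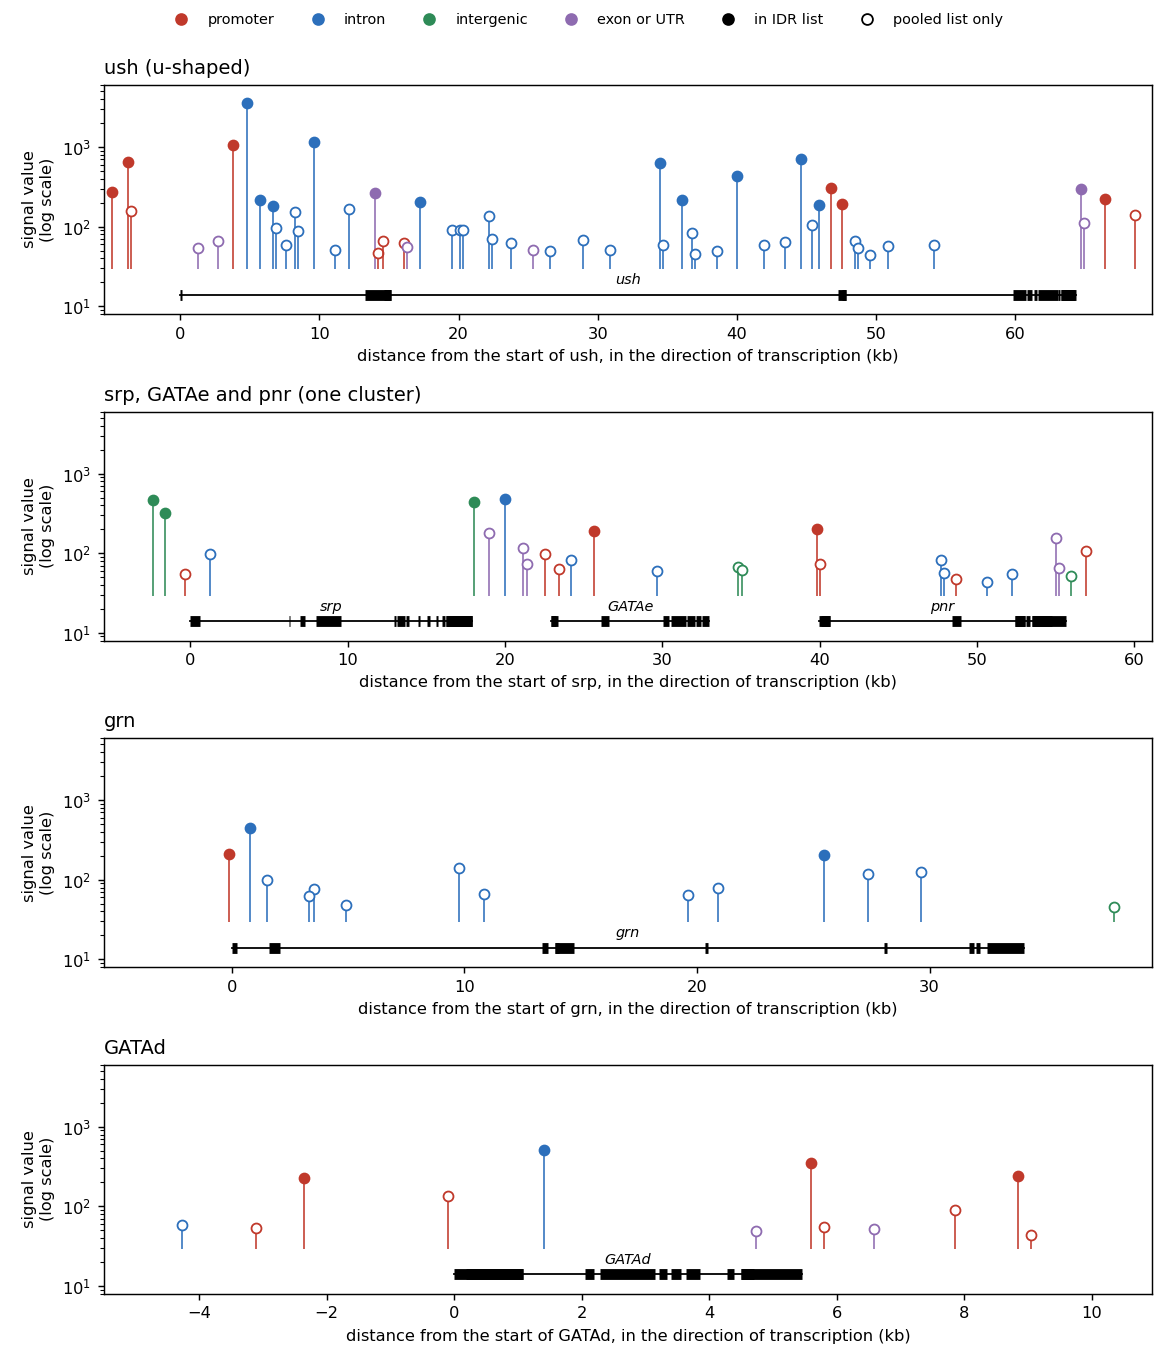
Peaks along the ush window, the srp, GATAe and pnr cluster, grn and GATAd. Each stem is a peak of the pooled list at its distance from the gene start in kb, its height the authors' signal value on a log axis; filled circles are in the IDR list, open circles in the pooled list only, colours give the position class, and black boxes are exons. The tallest stem, at 3601, is in the first intron of ush.

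The ush count was high for its length. In the strongest 6458 peaks of each replicate, the ush window held 17, 14 and 17 summits in replicates 1, 2 and 3, or 16 ± 1.73 (SD, n = 3). Only 4 of 13945 protein-coding genes, ush included, had 18 or more IDR summits. Of the 198 genes whose window is at least as long as its 74.3 kb, 3 reached 18, again with ush among them, and the median was 3 with a highest value of 24. Per 10 kb, ush had 2.42 IDR summits, against 0.594 in the median protein-coding window, and 7.67% of genes were as dense or denser.

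GATAd had the densest window of the 6, with 4 IDR summits in 15.5 kb, or 2.59 per 10 kb, which 5.72% of genes reached. For srp the value was 1.43 per 10 kb and for GATAe 1.5, and 22.9% and 21.9% of genes were at least as dense. For grn it was 0.681 and for pnr 0.389, where 47.6% and 53.4% of genes were at least as dense. So grn and pnr sat near the middle of all genes, and srp and GATAe stood moderately above it.

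**Figure D2:**
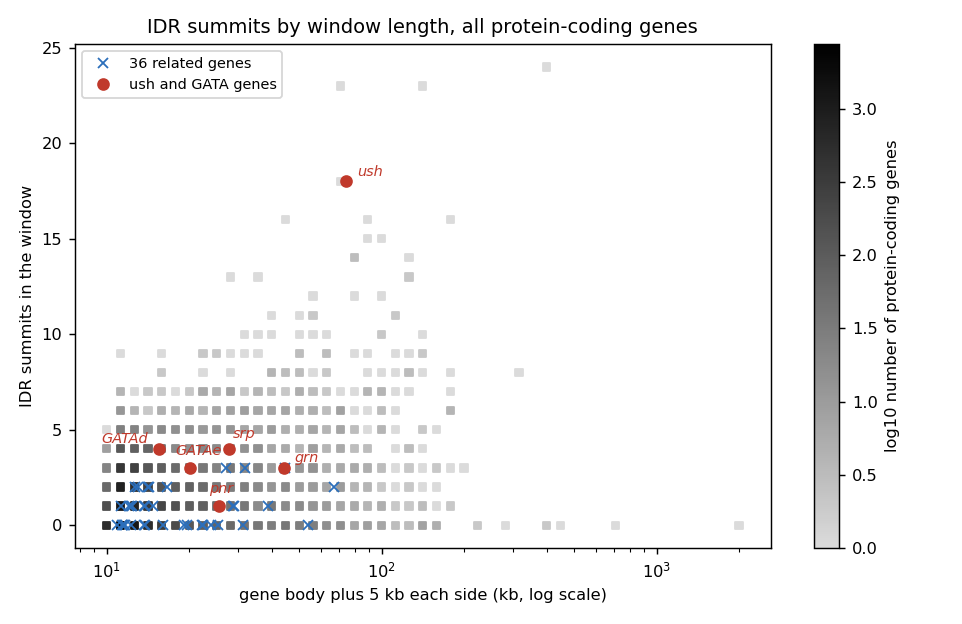
IDR summits in the gene body plus 5 kb each side (vertical axis) by window length in kb (horizontal log axis). Grey squares are bins of all 13945 protein-coding genes, darker with more genes on a log10 scale; red circles are ush and the GATA genes, blue crosses 36 related genes. With 18 summits ush lies above most windows of its length, and the GATA genes have 1 to 4. Of all protein-coding genes, 6.96% had as many as GATAd and srp, with 4 each, or more.

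Raw counts per replicate kept ush far above the others, but they are not scaled to window length. The ush window is 74.3 kb long and that of GATAd 15.5 kb. Per 10 kb of window, GATAd had 2.59 IDR summits against 2.42 at ush. Among the strongest 6458 peaks, the srp window held 4, 5 and 5 summits in replicates 1, 2 and 3 (4.67 ± 0.577, SD, n = 3). For GATAe there were 2, 4 and 4 (3.33 ± 1.15) and for GATAd 4, 2 and 4 (3.33 ± 1.15). In grn the numbers were 3, 2 and 2 (2.33 ± 0.577), and in pnr 1, 0 and 0 (0.333 ± 0.577). The ranges of GATAe, GATAd and grn overlap each other, that of srp overlaps those of GATAe and GATAd but not that of grn, that of pnr lies below these 4, and that of ush lies above all 5.

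**Figure D3:**
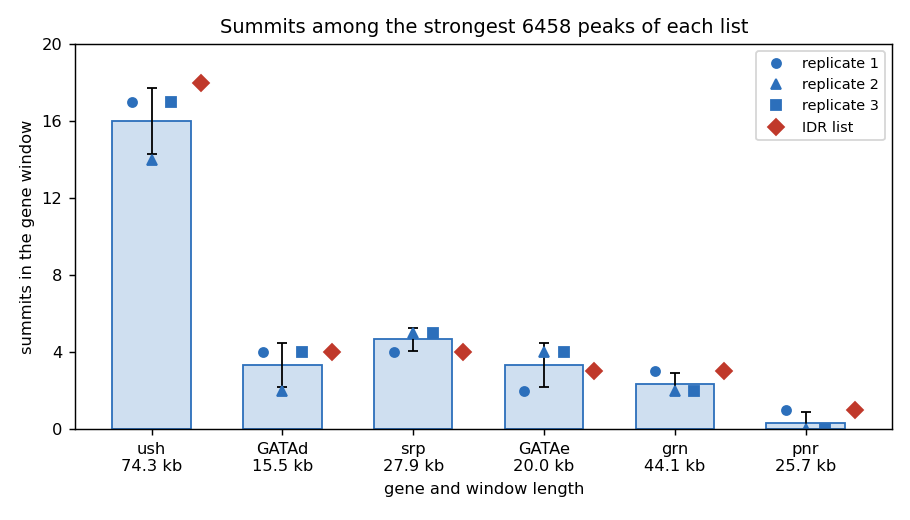
Summits among the strongest 6458 peaks of each replicate list, by gene, with the window length in kb under the name. Bars are the mean and error bars the SD of 3 replicates, blue symbols the single replicates and red diamonds the IDR list. The ush replicates sit at 14 to 17, and no GATA gene exceeds 5.

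By position, introns and promoters held 26 of the 31 members. A promoter summit is one within 500 bp of any annotated transcription start site (TSS). Of the 31 summits, 14 lay in introns, 45.2% (27.3 to 64.0%), against 32.7% of all IDR summits. At promoters there were 12, 38.7% (21.8 to 57.8%), against 50.6% of all IDR summits. Intergenic sequence held 3, and exons or untranslated regions away from promoters 2. The intervals of the members' shares are wide and include the shares of the whole list. In the strongest peaks of replicates 1, 2 and 3, promoters held 34.5, 37.5 and 34.5% of the members (35.5 ± 1.73%, SD, n = 3) and introns 51.7, 41.7 and 44.8% (46.1 ± 5.12%).

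Many of the promoter peaks belonged to neighbouring genes. Of the 12, 5 lay at a TSS of one of the 6 genes and 7 at a TSS of another gene in the window. In 4 of the 6 genes at least 1 own TSS was reached, against 26.7% of all protein-coding genes and 37.0% of the 3239 with windows as long as the shortest of the 6. These 5 own-promoter peaks were weak within the IDR list: their ranks ran between 3324 and 6060 with a median of 5763, while the 26 other members had a median rank of 2858.5 and all IDR promoter summits one of 3136. In 1 of the 6 genes, pnr, the strongest peak of the window was at its own promoter, against 29.0% of all genes with an IDR summit.

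Across the 16 annotated TSS of the 6 genes, 6 had an IDR summit within 500 bp and 12 a pooled one. A further 3 had none in any of the 5 lists, namely 2 inner starts of srp and the first start of ush. The outermost srp start had only weak peaks: rank 23462 in the pooled list, 29394 in replicate 2 and 26043 in replicate 3, with none in replicate 1. Both GATAd starts lay by 1 pooled peak at rank 9154, and the replicate peaks with a summit within 500 bp ranked at best 14077, 13416 and 6993 in replicates 1, 2 and 3.

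Replicate support depended on how peaks were matched. A member was first matched to a peak among the strongest 6458 of a replicate when the overlap covered 50% or more of each. By that rule 9 of 31 were found in all 3 replicates, 29.0% (14.2 to 48.0%), against 41.3% of all IDR peaks. A further 7 were found in 2 replicates, 22.6% against 30.4% of all IDR peaks. In 1 replicate only there were 11, 35.5% (19.2 to 54.6%) against 17.7% of all. The last 4 were found in none, 12.9% against 10.6% of all. By width, 16 members were narrower than the usual 430 bp of the pooled list, at 159 to 349 bp, and replicate peaks were mostly 404, 420 and 410 bp wide in replicates 1, 2 and 3. The narrow members held all 4 that matched no replicate, against 0 of the 14 at the usual width. The whole IDR list had the same pattern: 23.2% of its narrower peaks and 1.17% of those at the usual width matched none. Matched in all 3 were 6 of the 16 narrow members (37.5%) and 2 of the 14 (14.3%). Over all IDR peaks these shares were 46.7% and 34.1%. The part of width in the count was not tested. When a summit within 150 bp was asked for instead, 17 of 31 were found in all 3, 54.8% (36 to 72.7%), against 58.1% of all IDR peaks, and 26 of 31 when every replicate peak was allowed. All 16 narrow members had a summit within 150 bp in all 3 replicates.

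**Figure D4:**
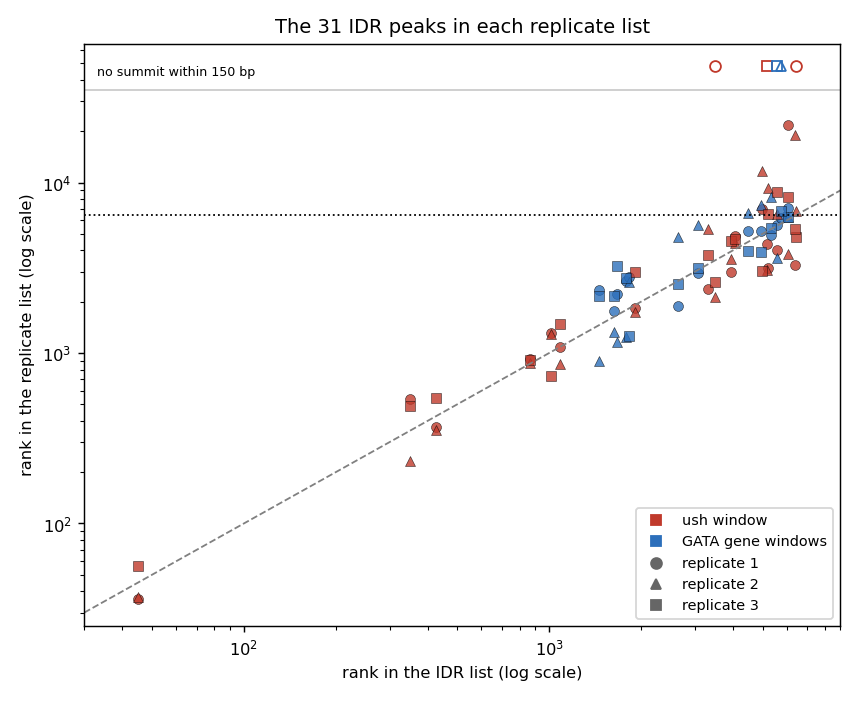
Rank of the 31 IDR peaks in the IDR list (horizontal log axis) and of the peak with a summit within 150 bp in each replicate list (vertical log axis). Red is the ush window, blue the GATA gene windows, symbols give the replicate; the dotted line is rank 6458, the dashed line equal rank, and open symbols at the top have no such summit. The strongest members, from rank 45 to 1084, stay close to equal rank, and the scatter is widest among the weakest ones.

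The window of ush is described first among the genes because it holds most members. The gene (FBgn0003963, chromosome 2L, 476220 to 540560, plus strand) has 4 annotated starts and long introns, and its window holds 9 other genes. Its strongest peak, 480858 to 481316, is the strongest of all members, at IDR rank 45 with a signal of 3601. It ranked 36, 37 and 56 in replicates 1, 2 and 3. The summit lies in the first ush intron and 1368 bp upstream of cabut (cbt), a zinc finger factor gene nested in ush on the opposite strand that is known for dorsal closure of the embryo.

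A peak at 479907 to 480233, IDR rank 426, lay 358 bp upstream of the cbt start itself. It ranked 369, 354 and 542 in the 3 replicates. Second in strength in the window was a first-intron peak at 485711 to 486031, IDR rank 349, with replicate ranks of 536, 233 and 487. The 3 strongest peaks of the window thus lay in the stretch around cbt and before the second ush start, and each was high in every replicate.

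The fourth, 520687 to 520980 at IDR rank 865, was in an intron 2648 bp before an inner start of ush. Its ranks were 926, 878 and 911 in the 3 replicates. Another intronic peak, 510496 to 510844, had IDR rank 1084 and replicate ranks of 1082, 860 and 1485, and also holds a GATA word, written TTATCT on the plus strand. These 2 peaks sit in the long intron between the second and the third start.

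At the starts of ush itself the peaks were weaker. A summit 475 bp before the start at 523466 had IDR rank 3324 and lay by replicate summits at ranks 2374, 5350 and 3751. A second, 23 bp after the start at 523736, had IDR rank 6060 and varied widely, with ranks of 21683, 3814 and 8188. Near the ush start at 490835, where a non-coding RNA also starts, pooled peaks within 500 bp reached rank 19401. An IDR peak at rank 4058 stood 616 bp before that shared start, in the 5′ untranslated region of ush. It ranked 4872, 4412 and 4683. So the 2 inner starts close to each other had IDR peaks within 500 bp, and the first 2 starts did not.

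Along the locus the IDR summits fell mainly before the inner starts. The 5 kb before the gene held 2, the 14.6 kb between the first and second start 6, the 32.6 kb between the second and the third start 7, the 17.1 kb beyond the third start 1, and the 5 kb after the gene 2. The strongest peaks of replicates 1, 2 and 3 gave 6, 5 and 6 summits between the first and second start (5.67 ± 0.577, SD, n = 3). Beyond the third start they gave 0, 1 and 0 (0.333 ± 0.577). The 3′ part, which holds most of the exons, thus had few of the strongest summits in each replicate. The full lists of replicates 1, 2 and 3 had 6, 7 and 3 summits there.

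Of the 18 ush IDR summits, 14 lay in the gene body and 4 in the flanks, and 6 of the 18 were promoter summits. Besides the 2 at ush, 1 was at cbt, 2 at CG4297 and 1 at lesswright (lwr), which encodes the SUMO-conjugating enzyme. The stronger CG4297 peak, at IDR rank 1011, ranked 1302, 1299 and 729 in the replicates, and the lwr promoter peak, at IDR rank 4987, ranked 7041, 11682 and 3048. The 4 members that matched no replicate peak by 50% overlap were all in this window, at widths of 168 to 188 bp, and each had a replicate summit within 150 bp in all 3 lists.

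The srp, GATAe and pnr genes lie in a row on chromosome arm 3R, in the same orientation. The 65.6 kb from 5 kb before srp to 5 kb after pnr held 6 IDR summits, against 18 in the 74.3 kb of ush. Among the strongest peaks of replicates 1, 2 and 3 the cluster had 5, 6 and 6 (5.67 ± 0.577, SD, n = 3), against 17, 14 and 17 at ush.

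Serpent (FBgn0003507, 15986152 to 16004085, plus strand) had no IDR summit in its body. All 4 lay in its flanks, with 2 upstream and 2 downstream. The upstream peaks were intergenic, 2386 and 1571 bp before its start, at IDR ranks 1665 and 3064. Summits within 150 bp of the first ranked 2226, 1165 and 3251 in replicates 1, 2 and 3, and those of the second 2935, 5629 and 3154. Both were within the strongest 6458 peaks of every replicate.

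By IDR rank, the 5.02 kb between the end of srp and the start of GATAe held the strongest peak of both windows. That peak, 16006024 to 16006273, had IDR rank 1626 and lay in an intron of lncRNA:CR42839. It ranked 1775, 1322 and 2162 in replicates 1, 2 and 3. A neighbouring intergenic peak at 16004113 to 16004312, IDR rank 1826, was near summits at ranks 2787, 2599 and 1251. The order thus changed between lists: in replicate 3 this neighbour was the stronger of the pair. In replicate 2 an upstream srp peak, at rank 1165, was the strongest of the srp window. The strongest peaks of the 3 replicates gave 2, 3 and 3 summits in this stretch (2.67 ± 0.577, SD, n = 3), so the stretch between these blood and endoderm genes held strong peaks in each replicate.

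GATAe (FBgn0038391, 16009105 to 16019133, plus strand) had 1 IDR summit beyond those shared with srp. It lay 489 bp before the inner GATAe start, near the limit of the promoter class, with IDR rank 6045. Its replicate ranks were 7102, 6296 and 6283. By the outer start lay a pooled peak at rank 12737, which matched a peak at rank 6096 in replicate 2 and one at rank 22216 in replicate 3, and none in replicate 1. Within 500 bp of the outer start itself, the best summits ranked 20936, 16859 and 22216 in replicates 1, 2 and 3. These promoter peaks ranked behind the strongest peak upstream of the gene in each list.

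Pannier (FBgn0003117, 16026079 to 16041796, plus strand) had the weakest window. Its 1 IDR peak, 16025781 to 16026210 at rank 5763, lay 83 bp before the gene start and over the DRE printed above. It ranked 6237 in replicate 1 and 6852 in replicate 3, and replicate 2 had no peak there. By the rule of 2 matching replicates it would not count whichever replicate was left out. The window still held 12 pooled peaks, and 10, 5 and 12 peaks in replicates 1, 2 and 3, nearly all past rank 6458.

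**Figure D5:**
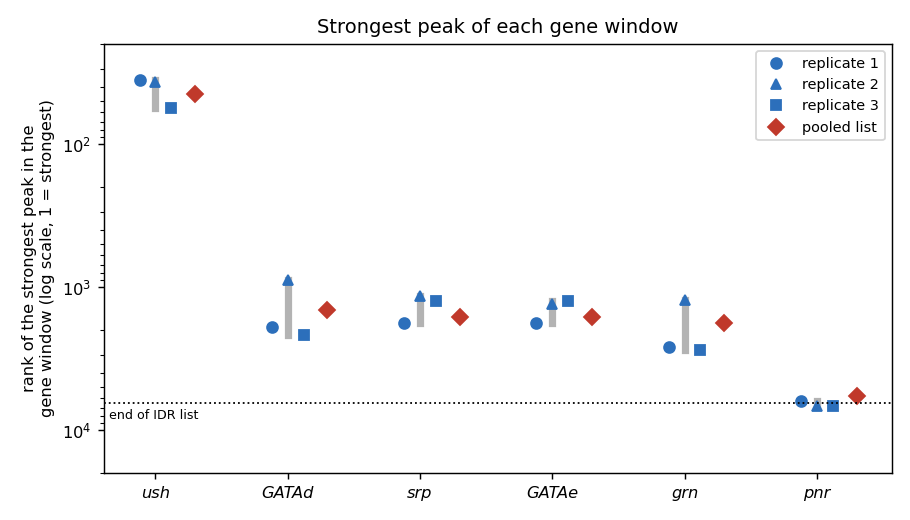
Rank of the strongest peak in each gene window (vertical log axis, strongest at the top) in replicates 1, 2 and 3 (blue) and in the pooled list (red); grey bars span the replicates and the dotted line marks rank 6458. In ush the ranks are 36 to 56, in GATAd, srp, GATAe and grn 900 to 2769, and in pnr 5763 to 6852.

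Grain (FBgn0001138, chromosome arm 3R, 8147368 to 8181444, minus strand) has 1 annotated start and no other gene in its window. Its strongest peak, 8180552 to 8180710 at IDR rank 1788, lay in the first intron, 797 bp after the start. Summits within 150 bp ranked 2650, 1243 and 2769 in replicates 1, 2 and 3. At the promoter, 105 bp before the start, IDR rank 5317 went with replicate ranks of 4920, 8225 and 5440. A distal intronic peak at 8155762 to 8156191, IDR rank 5576, ranked 5600 and 3620 in replicates 1 and 2 and had no summit within 150 bp in replicate 3. The first-intron peak was stronger than the promoter peak in every replicate.

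GATAd (FBgn0032223, chromosome arm 2L, 10333734 to 10339185, plus strand) is the shortest of the 6 genes and lies close to 5 other genes. Its strongest peak, 10335084 to 10335253 at IDR rank 1455, lay in an intron 1231 bp after its inner start. Replicate summits within 150 bp ranked 2344, 900 and 2170. The 3 other IDR peaks were at promoters of neighbours. At SamDC, which encodes S-adenosylmethionine decarboxylase, the IDR rank was 2653 and the replicate ranks were 1898, 4771 and 2548. Sps2, a selenophosphate synthetase gene, had an IDR rank of 4479 and replicate ranks of 5226, 6659 and 3956. Cox10, which acts in heme synthesis, shares a promoter peak with Schip1 at IDR rank 4936, with replicate ranks of 5227, 7401 and 3917. The density of this window thus came mostly from promoters of other genes.

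Set side by side in the IDR list, the GATA genes of blood and endoderm had their stronger peaks in intergenic sequence and a non-coding RNA intron. There grn and GATAd had theirs in their own introns, and pnr had a weak promoter peak. The strongest peak of a window was also taken from each replicate list, where it can be a different peak each time. It ranked 1775, 1165 and 1251 in replicates 1, 2 and 3 for srp and 1775, 1322 and 1251 for GATAe. The srp and GATAe windows share the pair of peaks between them, so their ranks overlap in part by construction. It ranked 2650, 1243 and 2769 for grn, 1898, 900 and 2170 for GATAd and 6237, 6758 and 6852 for pnr. For GATAd, rank 1898 in replicate 1 was at the SamDC promoter, and the intron peak ranked 2344 there. For pnr, rank 6758 in replicate 2 was in the 3′ untranslated region, not at the promoter. The ranks of srp, GATAe, grn and GATAd overlap in range, those of pnr lie past them, and those of ush, at 36, 37 and 56, lie before them. The design has 1 group, so no test of a difference between conditions was made.

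Other genes of the tissues in which these factors act gave a comparison. Of 36 genes known for blood, endoderm, heart or dorsal ectoderm, 19 had an IDR summit in the window, 52.8%, against 55.6% of all protein-coding genes. At an own TSS there were 4 of 36, 11.1%, against 26.7% of all. No related gene had more than 3 IDR summits. The share with a summit was close to that of all genes.

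Of 10 blood genes, 7 had an IDR summit and 2 of them, Pvr and the scavenger receptor gene crq, at an own promoter. Pvr, the receptor of PDGF- and VEGF-related factors that guides blood cells, had its strongest peak at IDR rank 1260, with replicate ranks of 2240, 1973 and 645. The strongest in the window of knot (kn), an EBF-family factor of the lymph gland, had IDR rank 2476, replicate ranks of 2543, 2848 and 2488, and the promoter of BEAF-32 as its position. Of 5 endoderm or gut genes, 3 had one. Fork head (fkh), a factor of the gut ends, had IDR rank 563 at its own promoter, with replicate ranks of 817, 319 and 956. Biniou (bin), a Forkhead factor of the visceral mesoderm, had IDR rank 922 in intergenic sequence 1308 bp from its start, with replicate ranks of 513, 1177 and 1532.

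Heart genes had a summit in 6 of 10 windows. Tinman (tin), the homeodomain factor of the heart, had IDR rank 468 at its own promoter, with replicate ranks of 570, 492 and 488. The window of Hand, a factor of heart and blood precursors, had IDR rank 1905 at the promoter of CYLD, with replicate ranks of 2551, 1698 and 1846. Dorsal ectoderm genes had one in 3 of 11 windows and none at an own promoter. The tup window, of a LIM homeodomain factor, had IDR rank 840 at the promoter of CG10602, with replicate ranks of 706, 1032 and 930. The window of Chi, a LIM-binding cofactor gene, had IDR rank 3131 at a promoter shared by HSPC300 and CG3163, with replicate ranks of 5732, 4122 and 1563. None of these 8 strongest peaks reached the rank of the strongest ush peak, while in the IDR list Pvr, fkh, bin, tin and tup had a stronger one than any of the 5 GATA genes.

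By the number of IDR summits at promoters, in introns and elsewhere, the related genes closest to ush were kn, tup and lab, a homeotic gene of the midgut and head. Each had 3 summits against 18 at ush, and the summed difference over the 3 classes was 15 for each. For every related gene this measure equals the difference in total count, so it adds nothing on the classes, and longer windows hold more. Bx, the related gene nearest to ush in window length at 67382 bp, was chosen after its values were seen and had 2 IDR summits, both in introns.

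In GC content and signal the members resembled the whole IDR list, while their median width was 349 bp against 430 bp over all IDR peaks. GC content within 50 bp of the summit had a median of 32.7% (19.8 to 62.4% over the 31), against 33.66% over all IDR summits. The median signal was 293.7 among members and 309.0 over all IDR peaks. The 18 ush members had a median IDR rank of 3714 and the 13 members at GATA genes one of 3064, so the high count at ush did not come with a stronger typical peak.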

How the data were processed

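Peak lists from 3 biological replicates of 1 group were analysed, with a pooled and an IDR list. Per the README listings, the authors called the replicate and pooled lists on dm6 against the same control file and derived the IDR list from them. The caller is not given in the sources used here, nor is the aligner. Each deposited peak has a signal value, used to rank peaks within a list, and a −log10 q-value, at most 4.16, which all IDR peaks share and which was not used to rank. Fragments were 200 to 800 bp, per the labels. All columns of the lists mapped to a sample or to the pooled data.

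Gene positions came from Ensembl release 115 and sequence from RefSeq genome release 6. Summits within 500 bp of a TSS were called promoter; others were placed in an exon or untranslated region, an intron or intergenic sequence. Words were searched on both strands within 50 bp of the summit; CAGGTA, the Zelda word, lay under 1 of 31 members and 2.04% of all IDR summits. Replicate peaks were matched by 50% overlap of each. Intervals are exact binomial. With 1 group no test was made. The 6 genes and the 36 related genes were chosen with earlier results of these data known. For genes with over 4 IDR summits the text names at least the 4 strongest, and others in the ush window were chosen after their values were seen. For each related list it names the 2 genes with the strongest IDR peaks. Counts were made with Python 3.11.15, numpy 2.4.6, pandas 2.3.3 and scipy 1.17.1, figures with matplotlib 3.10.9, and the code was tested on simulated data. Alternatives changed the flank, TSS distance, overlap, list depth, word window and replicates used.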

Additional observations from a re-analysis of the deposited data

How the results depend on the processing

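Counts depended on the lists used. The 31 IDR summits became 14 with the strongest 3229 IDR peaks and 108 in the full pooled list, 11 to 12 when a match in both replicates left after leaving out 1 was asked for, and 13 without ush. The 12 promoter summits became 5 at TSS of the 6 genes, 2 to 5 leaving out each replicate, and 6 without ush. The 9 matched in all 3 replicates became 17 with a 1 bp overlap, 16 with every replicate peak, 17 by summits within 150 bp, 26 by summits with every peak, and 2 without ush. GATA words under 6 summits became 12 within 100 bp, 22 over pooled peaks and 3 leaving out any replicate. The mean of 27.3 summits in the strongest replicate peaks became 97.7 with every peak and 15.7 with the strongest 3229. A 2 kb flank gave 2 for srp, 1 for GATAe and 2 for GATAd. Leaving out each replicate gave 2 for srp, 1 to 2 for GATAe, 0 for pnr, 0 to 1 for grn, 0 to 2 for GATAd and 7 to 8 for ush, which kept the most members each time. The other 22 alternatives stayed within 1.5 times the main count. The summit matching, the counts without ush and the counts per gene leaving out a replicate were chosen after seeing the data. No paired analysis was possible because there is 1 group. Depth is unknown, and binding cannot be told apart from an effect of the tag or antibody without untagged samples.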
